A study of Mus musculus with 12 samples.

Results

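The mouse mitochondrial genome encodes 37 genes whose symbols begin with mt-, and all 37 were listed among the 20792 genes measured in hematopoietic stem and progenitor cells (HSPCs). They comprised 2 rRNA genes, 13 protein-coding genes (mRNAs) and 22 tRNA genes, chosen by the prefix of the symbol alone and present in each of the 12 libraries. Bone marrow of WT male mice was sorted for cells without lineage markers or CD127 that carried both c-kit and Sca-1, and their total RNA was sequenced in 4 groups of 3 libraries. ND mice ate normal chow and HSD mice ate high-salt chow with salted water, in both cases for 8 weeks from an age of 4 to 6 weeks and without further treatment. ND ICHD7 and HSD ICHD7 mice had the same diets and were sampled on day 7 after an intracerebral hemorrhage (ICH), made by injecting the animal's own blood into the brain. The study returned all mice to normal chow after ICH, so HSD ICHD7 cells came from mice that no longer ate high-salt chow. Each ND and HSD library was pooled from 3 animals, and no number of animals is given for the ICH libraries. In pooled bulk RNA, fewer cells of a type and less RNA per cell cannot be told apart.

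Mitochondrial DNA is transcribed from both strands as long precursor RNAs that run through nearly the whole circle. The tRNAs lie between most of the other genes, and their excision by nucleases at each tRNA end releases the rRNAs and mRNAs, an arrangement known as tRNA punctuation. The rRNAs build the mitochondrial ribosome, the tRNAs decode its messages, and the mRNAs encode core subunits of respiratory complexes I, III, IV and V, which HSPCs draw on as they leave quiescence and differentiate.

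Values are CPM, reads per unit of library size that the authors scaled by the trimmed mean of M-values (TMM). Reads could be recovered from the steps between values, and numbered 8678304 to 15469971 over listed genes in the libraries without ICH and 12286357 to 27491973 in those after ICH. Every mitochondrial gene had at least 18 reads in every library, so all 37 passed a filter that asked for 10 reads or more in 3 libraries of a comparison. A fold change is a difference of means on log2(CPM + 0.5), and a gene was called when the Benjamini-Hochberg adjusted p of limma over all genes tested was under 0.05. The 14 listed HSPC markers, none at 0, summed to 2711 to 2872 CPM in ND, 2733 to 2899 CPM in HSD, 2484 to 2674 CPM in ND ICHD7 and 2241 to 2619 CPM in HSD ICHD7, lower in every library after ICH than in every one without. Macrophage markers, of which 15 of 15 were listed and none was at 0, were highest in HSD replicate 2 (summed level 1534 CPM) and ND replicate 1 (851 CPM), and the remaining 10 libraries held 248 to 392 CPM. Low-level signal also differed with ICH, since 2 to 29 listed genes lacked reads in each library after ICH and 1393 to 1755 in each without it.

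The gene order shows how tightly the members are packed on chromosome M of GRCm38. Of 36 neighbouring pairs, 9 overlap and 34 lie within 3 bases of each other, so a read from an unprocessed precursor can cover more than 1 gene. The heavy-strand transcript carries 28 of the genes and the light-strand transcript 9, namely mt-Nd6 and 8 tRNAs. The tRNA genes on which the comparisons below turn are printed here from GENCODE M21, 5′ to 3′ along their own strand, with the anticodon in capitals. The first 4 are shown for their large differences after ICH, the next 2 are the most abundant tRNA genes, and the last 2 flank rRNA genes and had the smallest tRNA fold changes on ND.
mt-Td (aspartate, chrM:6942-7011, heavy strand): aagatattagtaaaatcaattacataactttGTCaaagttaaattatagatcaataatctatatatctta
mt-Tk (lysine, chrM:7700-7764, heavy strand): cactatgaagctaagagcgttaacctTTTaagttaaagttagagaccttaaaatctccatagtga
mt-Tw (tryptophan, chrM:4950-5016, heavy strand): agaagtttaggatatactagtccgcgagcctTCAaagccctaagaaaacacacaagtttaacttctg
mt-Ta (alanine, chrM:5018-5086, light strand): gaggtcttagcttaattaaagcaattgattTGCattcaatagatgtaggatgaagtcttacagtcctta
mt-Ty (tyrosine, chrM:5260-5326, light strand): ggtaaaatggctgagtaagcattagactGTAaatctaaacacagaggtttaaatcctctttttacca
mt-Ts1 (serine, chrM:6870-6938, light strand): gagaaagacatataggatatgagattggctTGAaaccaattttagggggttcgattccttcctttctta
mt-Tv (valine, chrM:1025-1093, heavy strand): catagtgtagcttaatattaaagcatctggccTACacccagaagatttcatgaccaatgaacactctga
mt-Tl1 (leucine, chrM:2676-2750, heavy strand): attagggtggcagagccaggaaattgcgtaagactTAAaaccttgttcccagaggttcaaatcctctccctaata
Over the 22 tRNA genes the length ran from 59 to 75 bases. mt-Td had the lowest GC content, 17.1%, and mt-Tm the highest, 44.9%.

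The rRNAs made up most of the mitochondrial reads. All 37 genes together took 7.70% ± 0.412 (SD, n = 3) of listed reads in ND, 7.35% ± 1.61 in HSD, 8.79% ± 0.865 in ND ICHD7 and 9.70% ± 1.03 in HSD ICHD7. Of the mitochondrial reads, 80.1% to 81.8% as group means fell on the 2 rRNAs and 17.4% to 18.6% on the 13 mRNAs. The tRNAs took 0.820% of the mitochondrial reads in ND and 0.774% in HSD, against 1.42% in ND ICHD7 and 1.34% in HSD ICHD7.

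In single libraries the rRNA share of listed reads was 6.63%, 6.15% and 6.11% in ND, 6.10%, 4.62% and 7.23% in HSD, 6.74%, 7.62% and 6.75% in ND ICHD7, and 8.00%, 6.92% and 8.37% in HSD ICHD7. The mRNA share was 1.47%, 1.29% and 1.26% in ND, 1.40%, 0.987% and 1.54% in HSD, 1.45%, 2.00% and 1.44% in ND ICHD7, and 1.79%, 1.54% and 2.10% in HSD ICHD7. For both classes the diets overlapped, and HSD replicate 2, a library high in macrophage markers, was the lowest of all 12. The tRNA share was 0.0706%, 0.0570% and 0.0621% in ND, 0.0588%, 0.0418% and 0.0712% in HSD, 0.103%, 0.178% and 0.0986% in ND ICHD7, and 0.145%, 0.115% and 0.128% in HSD ICHD7. Every library after ICH was above every library without ICH in this class, on both diets.

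**Figure D1:**
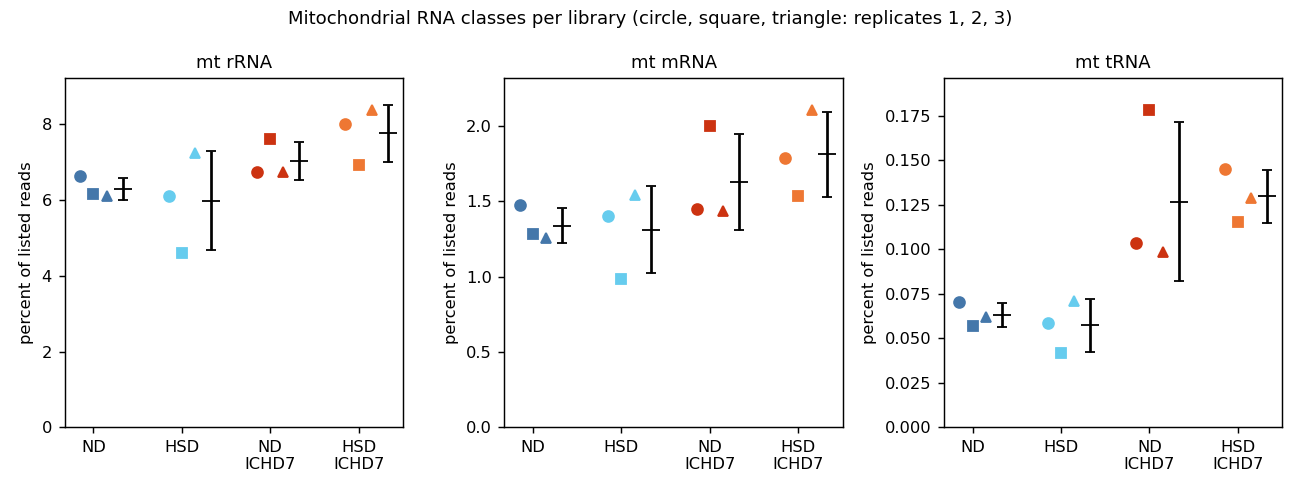
Percent of listed reads (y axis) on the mitochondrial rRNAs, mRNAs and tRNAs in each library of the 4 groups (x axis), with replicates 1, 2 and 3 as circles, squares and triangles and the mean ± SD in black. tRNA shares sit between 0.0418% and 0.0712% without ICH and between 0.0986% and 0.178% after ICH, whereas rRNA and mRNA shares overlap between most groups.

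Exact permutation tests on these shares were two-sided, and 3 against 3 libraries cannot go below p = 0.1. Within ND, the mean tRNA share was 2.00 times as high after ICH as without it, and within HSD 2.26 times, each with the smallest p that the design allows, 0.1. With diets as strata, the tRNA share was higher after ICH by 0.0679 percentage points, with an exact permutation p of 0.005, the smallest that 400 relabellings can give. Adjusted over the 24 tests of class shares this was 0.12, so it did not pass. The rRNA share was higher by 1.26 percentage points (exact permutation p = 0.02, adjusted p = 0.16) and the mRNA share by 0.395 percentage points (exact permutation p = 0.03, adjusted p = 0.18). For diet over both ICH states, the exact permutation p was 0.69 for rRNAs, 0.6 for mRNAs and 0.91 for tRNAs.

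Ratios within the mitochondrial RNA do not depend on how libraries were scaled. tRNA reads as a percent of mRNA reads were 4.79, 4.43 and 4.94 in ND and 4.19, 4.23 and 4.62 in HSD. After ICH they were 7.13, 8.92 and 6.86 in ND ICHD7 and 8.12, 7.49 and 6.11 in HSD ICHD7. The libraries after ICH were all above those without ICH, and the diets overlapped after ICH. On the log2 scale the ratio was higher after ICH by 0.69 on ND and by 0.73 on HSD, each with an exact permutation p of 0.1. Stratified by diet the difference was 0.71 with an exact permutation p of 0.005, or 0.12 adjusted over the 24 tests of ratios. One library set the lower end of this pattern. Without mt-Ty, the most abundant tRNA gene, the log2 ratio of HSD ICHD7 replicate 3 was −5.07, within the −5.07 to −4.79 of the 6 libraries without ICH, while the other 5 libraries after ICH stayed between −4.20 and −3.91. The difference stratified by diet was then 0.63, with an exact permutation p of 0.015 and an adjusted p of 0.36.

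The other ratios moved less. mt-Rnr2, the 16S rRNA of the large ribosomal subunit, had 2.50 ± 0.0305 (SD, n = 3) times the reads of mt-Rnr1, the 12S rRNA of the small subunit, in ND. In HSD the ratio was 2.42 ± 0.117, in ND ICHD7 2.62 ± 0.219 and in HSD ICHD7 2.48 ± 0.160. rRNA reads were 4.71 ± 0.192 times the mRNA reads in ND and 4.57 ± 0.201 times in HSD, against 4.39 ± 0.495 in ND ICHD7 and 4.32 ± 0.294 in HSD ICHD7. mt-Nd6, the only light-strand mRNA, took 3.91% ± 0.262 of the reads of the 12 heavy-strand mRNAs in ND, 3.64% ± 0.269 in HSD, 4.46% ± 0.838 in ND ICHD7 and 4.33% ± 0.591 in HSD ICHD7. For none of these 3 ratios did any of 6 exact permutation tests reach an unadjusted p under 0.05. The lowest was 0.095, for mt-Nd6 after ICH with diets as strata.

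**Figure D2:**
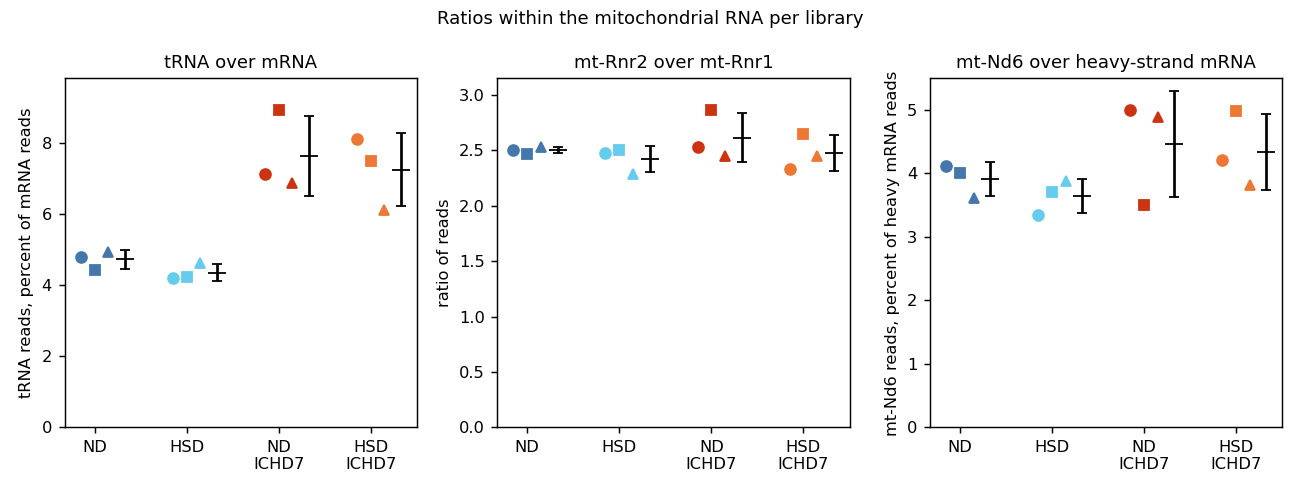
Ratios of reads (y axes) within the mitochondrial RNA per library of the 4 groups (x axis), with replicates as circles, squares and triangles and the mean ± SD in black. tRNA reads reach 6.11% to 8.92% of mRNA reads after ICH against 4.19% to 4.94% without it, while the rRNA ratio and the mt-Nd6 share overlap between groups.

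The 2 rRNA genes were the most abundant members by far. mt-Rnr2 was at 46085, 39949 and 40537 CPM in ND, 40492, 31967 and 46132 CPM in HSD, 43069, 50756 and 43528 CPM in ND ICHD7, and 49543, 45636 and 59046 CPM in HSD ICHD7. mt-Rnr1 was at 18385, 16164 and 16007 CPM in ND, 16365, 12753 and 20154 CPM in HSD, 16995, 17725 and 17772 CPM in ND ICHD7, and 21245, 17229 and 24103 CPM in HSD ICHD7. HSD replicate 2 was lowest and HSD ICHD7 replicate 3 highest for both genes, and the groups overlapped for both in all 4 comparisons. Neither was called in any comparison, with log2 fold changes from −0.11 ± 0.28 (SE, mt-Rnr2, HSD vs ND) to 0.39 ± 0.57 (mt-Rnr2, HSD ICHD7 vs HSD). These SEs are wider than the differences themselves. limma moderates them by a variance trend over all genes tested, so they are not the spread of these libraries alone.

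The mRNAs ranged widely once length was taken into account. In ND, the complex V subunit genes were highest, with mt-Atp8 at 3526 ± 268 CPM per kb (SD, n = 3) and mt-Atp6 at 2643 ± 188. These 2 genes share 43 bases, chrM:7927-7969, in which the mt-Atp6 start codon (capitals) lies inside the mt-Atp8 reading frame, so their reads are not fully separable.
mt-Atp8 and mt-Atp6 overlap: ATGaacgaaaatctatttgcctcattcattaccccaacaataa
Of the cytochrome c oxidase (complex IV) genes, mt-Co1 was at 1739 ± 165 CPM per kb, mt-Co2 at 1211 ± 80.0 and mt-Co3 at 831 ± 66.3. mt-Cytb, the one complex III gene, was at 1113 ± 164 CPM per kb. The 7 complex I genes spread from 193 ± 17.4 CPM per kb for mt-Nd3 and 431 ± 34.7 for mt-Nd2 to 1180 ± 93.1 for mt-Nd4l. Between them were mt-Nd6 at 914 ± 160 CPM per kb, mt-Nd4 at 797 ± 169, mt-Nd5 at 796 ± 209 and mt-Nd1 at 750 ± 84.4. The last 3 differed by less than their SD.

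Several mRNA values rest on reads that nuclear DNA could also give. Of 17 nuclear transcribed genes whose sequence matched a mitochondrial transcript over at least 60 bases at 90% identity or more, 10 were listed, and they matched 8 of the 13 mRNAs. Of these, 7 form a run on chromosome 1 (chr1:24611535-24616197, GRCm38) at over 99% identity. Gm28661, identical to mt-Co2 over 681 bases, was at a median of 98.7% of the level of mt-Co2, and Gm28437, identical to mt-Co3 over 783 bases, at 99.2% of mt-Co3. Gm10222 was at 98.7% of mt-Nd4l and Gm10925 at 92.7% of mt-Atp6. Gm28438 reached 60.4% of mt-Nd3, Gm28439 54.9% of mt-Nd4 and Gm29216 18.4% of mt-Co1, the last 2 matching only part of the gene. The less similar copies on chromosome 2 were low, with medians of 0.221% of mt-Co1 for Gm13340, 0.805% of mt-Co2 for Gm13341 and 0.0812% of mt-Nd2 for Gm13339. Levels of these 8 mRNAs are therefore uncertain, since sources used here do not give how reads with more than 1 match were counted. mt-Nd1, mt-Atp8, mt-Nd5, mt-Nd6 and mt-Cytb had no listed copy. In gene order, mt-Atp8 and 5 tRNA genes (mt-Ts1, mt-Td, mt-Tk, mt-Tg and mt-Tr) lie between the mRNAs copied on chromosome 1, and whether their reads were shared with that stretch was not tested.

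**Figure D3:**
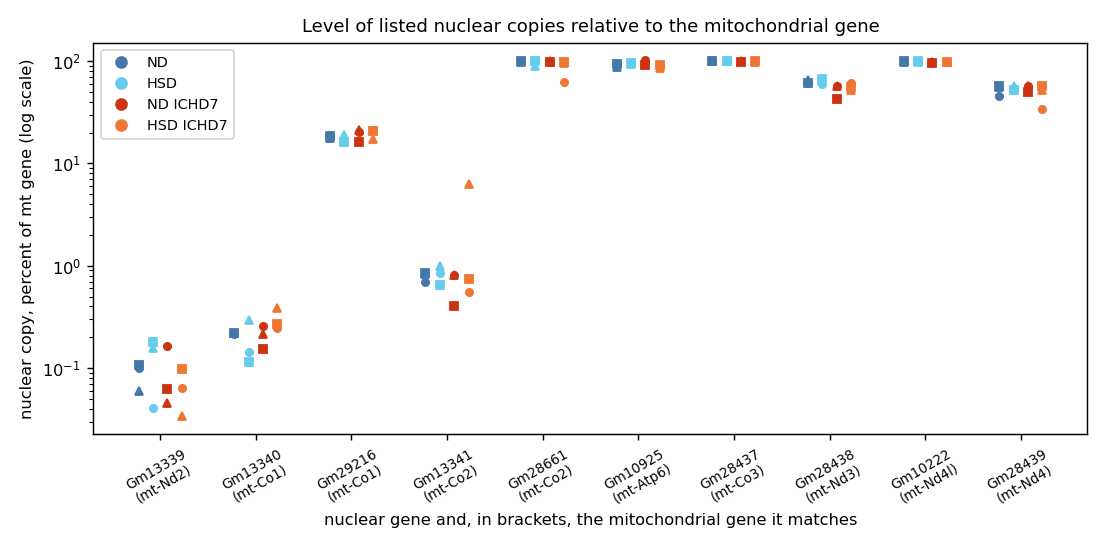
Level of each listed nuclear gene as a percent of the mitochondrial gene that it matches (y axis, log scale), in each library and coloured by group, ordered along the mitochondrial genome. Gm28661, Gm10925, Gm28437 and Gm10222 sit close to 100% in nearly all libraries, while the copies on chromosome 2 stay under 10%.

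The first question of the design was whether HSD changed HSPC RNA without ICH. For the mitochondrial genes no difference passed the test. By limma, 0 of 37 members were called between HSD and ND, against 0.0774% of all 16787 genes tested. At an unadjusted p under 0.05 there was 1 member (6.93% of all genes), and edgeR's quasi-likelihood test and DESeq2 on recovered reads called 0 as well. Means of 10 members were higher in HSD, against 54.6% of all genes. The groups did not overlap for 1 member, mt-Th, against 12.8% of all genes. The median log2 fold change was −0.08 over the rRNAs, −0.12 over the mRNAs and −0.09 over the tRNAs, beside 0.02 over all genes. The member with the smallest p was mt-Ty, the tyrosine tRNA. It was at 204, 138 and 175 CPM in ND and 160, 72.7 and 144 CPM in HSD, so that the groups overlapped. Its log2 fold change was −0.52 ± 0.23 (SE), with a limma p of 0.0461 and an adjusted p of 0.71. mt-Cytb, encoding cytochrome b, was at 1490, 1158 and 1173 CPM in ND and 2084, 1002 and 1437 CPM in HSD, with the highest and the lowest of these 6 values both in HSD.

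The direction of this comparison changed with the 2 libraries high in macrophage markers. HSD replicate 2 was the lowest HSD library for 29 of the 37 members, among them all 13 mRNAs and both rRNAs. Without it and ND replicate 1, the median log2 fold change was 0.14 over the rRNAs, 0.19 over the mRNAs and 0.21 over the tRNAs. In that fit of 4 libraries 1 member was called, mt-Cytb, with a log2 fold change of 0.57 and an adjusted p of 0.0426 (limma). Over all genes, 91 of 16318 were called in that fit, against 13 of 16787 with no library left out. The part of macrophage or erythroid RNA in these values was not tested.

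After ICH, HSD and ND were compared again, with ND ICHD7 and HSD ICHD7 as a separate set of 6 libraries. By limma 0 of 37 members were called, where 0 of 20079 genes were (0%), and no member had an unadjusted p under 0.05, against 15.6% of all genes. edgeR's quasi-likelihood test and DESeq2 also called no member. Means of 24 members were higher in HSD ICHD7, against 45.8% of all genes, and the groups did not overlap for 1, mt-Nd6, against 23.4%. Means of 12 of the 13 mRNAs were higher in HSD ICHD7, with a median log2 fold change of 0.17 beside −0.03 over all genes, and the medians were 0.20 for rRNAs and −0.02 for tRNAs. Over the 9664 genes that passed the study's CPM filter, above 10 CPM in at least 3 libraries, the median was 0.08. The largest mRNA values were those of mt-Co2 and mt-Nd4, both with close nuclear copies. mt-Nd4, a complex I subunit, was at 1091, 1133 and 1009 CPM in ND ICHD7 and 1914, 1112 and 1508 CPM in HSD ICHD7, with a log2 fold change of 0.45 ± 0.20 (SE) and an adjusted p of 0.32 (limma). mt-Co2 was at 856, 1105 and 813 CPM in ND ICHD7 and 1539, 931 and 1383 CPM in HSD ICHD7, a log2 fold change of 0.46 ± 0.21 with an adjusted p of 0.33 (limma). For both, HSD ICHD7 replicate 2 lay among the ND ICHD7 libraries. Whether the diet difference itself changed with ICH was tested as an interaction in 1 fit of all 12 libraries. limma called 0 of 37 members (0% of 20393 genes) and none had an unadjusted p under 0.05, against 8.35% of all genes. edgeR's quasi-likelihood test and DESeq2 called 0 too.

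Reads on the mitochondrial tRNA genes were higher after ICH. Counts per gene cannot tell mature tRNA from unprocessed precursor, and the source of these reads was not tested. Comparing ND ICHD7 with ND, limma called 17 of 37 members higher and none lower, and all 17 were tRNAs. Of all 19387 genes, 16.7% were called, 13.5% higher and 3.23% lower. Comparing HSD ICHD7 with HSD, 16 members were called higher and none lower, of which 15 were tRNAs and the other was mt-Nd6. Of all 18082 genes in that comparison, 6.58% were called, 5.31% higher and 1.26% lower. The 2 comparisons share no library, and 14 tRNAs were called in both, which is 14 of 17 on ND and 14 of 16 on HSD. The share of all genes called in both was not counted, so this overlap has no background beside it. Only 4 tRNAs, mt-Tv, mt-Tl1, mt-Tm and mt-Ty, were called in neither. The median log2 fold change of the 22 tRNAs was 1.03 on ND and 1.15 on HSD, beside 0.01 and −0.01 over all genes.

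**Figure D4:**
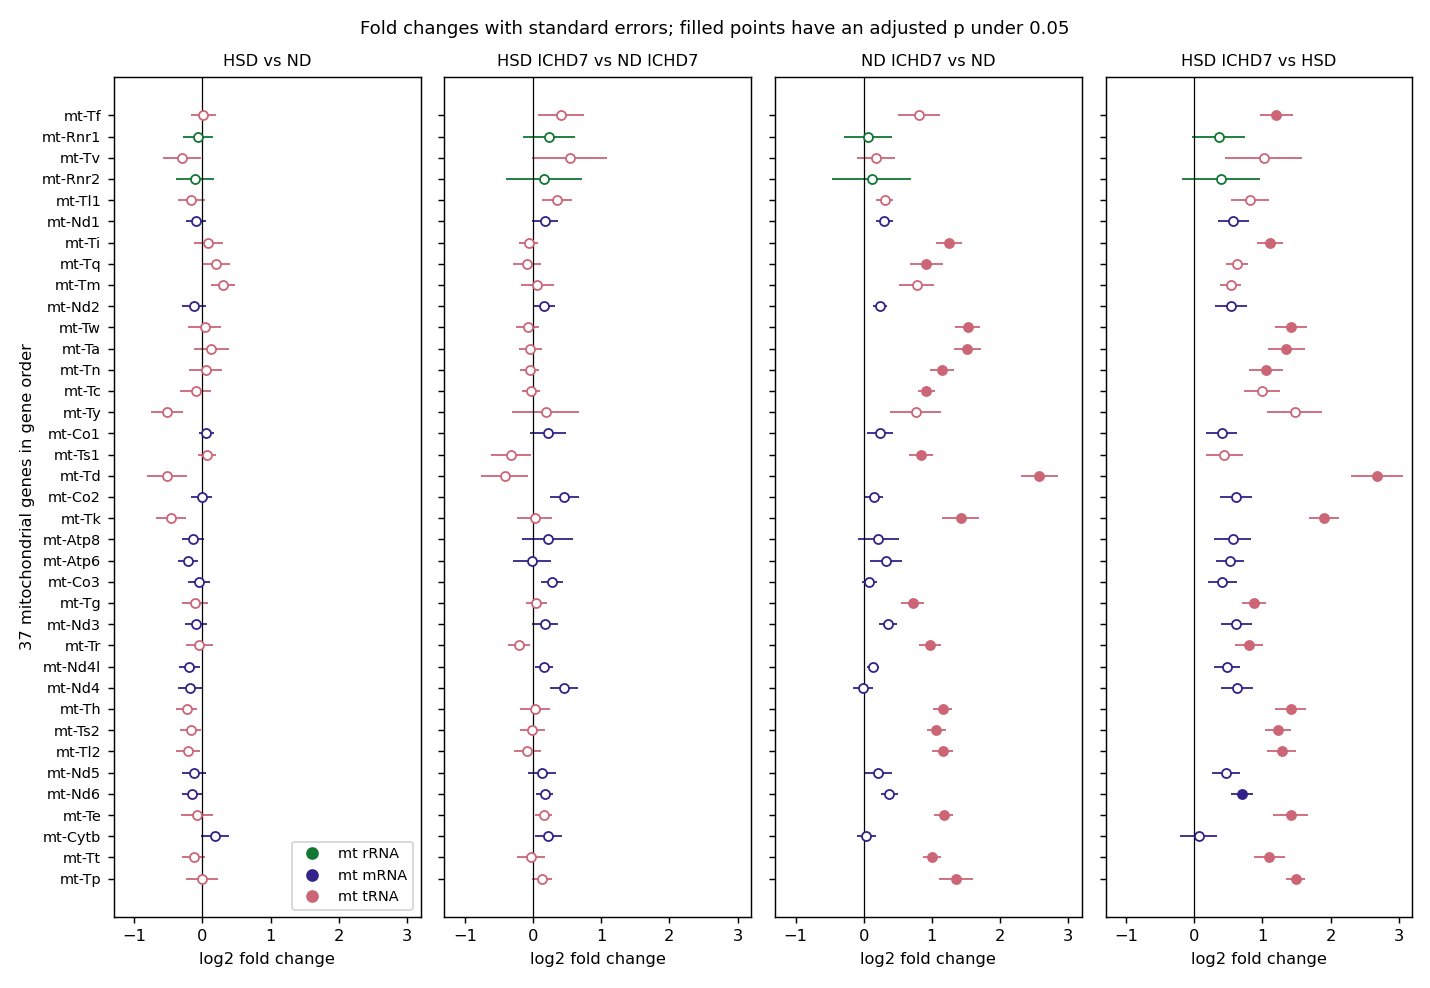
log2 fold change (x axis) with its standard error for the 37 genes in gene order (y axis) in the 4 comparisons, with rRNAs green, mRNAs blue and tRNAs red, and filled points where the adjusted p of limma was under 0.05. Nearly all filled points are tRNAs in the 2 comparisons of ICH with no ICH, and none lies in the 2 diet comparisons.

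The number of listed genes without a read moved with ICH in the same libraries, as given above, as did the HSPC marker sum. Summed neutrophil markers (10 of 10 listed) were at 38.1 to 43.5 CPM in HSD and 69.97 to 78.9 CPM in HSD ICHD7, but overlapped on ND, at 37.02 to 103 CPM and 45.3 to 74.5 CPM after ICH. Summed stroma markers (7 of 8 listed) were at 132 to 147 CPM in ND and 173 to 182 CPM in ND ICHD7, but overlapped on HSD, at 144 to 175 CPM and 135 to 167 CPM after ICH. No listed marker of these 3 lists was at 0 throughout a group. The part of any of these in the tRNA values was not tested. Over the 12 libraries, 18 of the 22 tRNA genes and 1 mRNA gene, mt-Nd6, were higher in all 6 libraries after ICH than in all 6 without, as were 11.5% of all genes. Within a diet, groups did not overlap and were higher after ICH for 21 members on ND (19.1% of all genes) and 23 on HSD (14.2%). The study states a threshold of p under 0.05 without adjustment and a log2 difference of 1 or more, at which there were 11 higher members on ND (10.7% of all genes) and 14 on HSD (5.88%).

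mt-Td, the aspartate tRNA, had the largest fold change on both diets. It was at 6.16, 4.47 and 4.76 CPM in ND and 22.3, 53.4 and 29.7 CPM in ND ICHD7. In HSD it was at 3.92, 1.81 and 5.28 CPM and in HSD ICHD7 at 32.4, 30.7 and 14.7 CPM. The ranges did not overlap on either diet, and the lowest value after ICH was above the highest without it. The log2 fold change was 2.58 ± 0.27 (SE) on ND, with an adjusted p of 7.23e-05, and 2.68 ± 0.38 on HSD, with an adjusted p of 0.00515 (limma). Next on HSD was mt-Tk, the lysine tRNA that lies between mt-Co2 and mt-Atp8. It was chosen after its values were seen. It was at 10.01, 8.09 and 5.78 CPM in ND against 17.1, 33.7 and 17.5 CPM in ND ICHD7, and at 5.67, 4.22 and 6.97 CPM in HSD against 27.3, 22.1 and 17.6 CPM in HSD ICHD7. Groups did not overlap, and its log2 fold change was 1.42 ± 0.27 on ND (adjusted p = 0.00366, limma) and 1.90 ± 0.22 on HSD (adjusted p = 0.00302).

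mt-Tw and mt-Ta, the tryptophan and alanine tRNAs, are neighbours on opposite strands. mt-Tw was at 11.2, 8.35 and 6.98 CPM in ND and 25.0, 31.9 and 21.8 CPM in ND ICHD7. In HSD it was at 7.90, 6.63 and 13.3 CPM, against 27.2, 26.4 and 20.6 CPM in HSD ICHD7. The log2 fold change was 1.52 ± 0.19 on ND (adjusted p = 0.000188, limma) and 1.42 ± 0.24 on HSD (adjusted p = 0.00895), with no overlap of groups. mt-Ta had values of 1.52 ± 0.19 and 1.35 ± 0.27 (adjusted p = 0.000231 and 0.017, limma). By strand, the median log2 fold change was 1.03 for the 14 heavy-strand and 1.03 for the 8 light-strand tRNAs on ND, and 1.15 and 1.20 on HSD.

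The other tRNAs chosen by their p-values changed by similar amounts. mt-Th, mt-Ts2 and mt-Tl2 lie side by side between mt-Nd4 and mt-Nd5, and carry histidine, serine and leucine. Their log2 fold changes were 1.16, 1.07 and 1.16 on ND and 1.42, 1.23 and 1.28 on HSD, and all 6 were called. mt-Te, the glutamate tRNA on the light strand next to mt-Nd6, was at 28.0, 22.02 and 18.9 CPM in ND and 54.6, 52.5 and 48.2 CPM in ND ICHD7. In HSD it was at 18.5, 15.4 and 34.4 CPM, against 62.8, 62.7 and 49.2 CPM in HSD ICHD7. These groups did not overlap, and the log2 fold changes were 1.17 ± 0.13 and 1.41 ± 0.26 (adjusted p = 0.000118 and 0.0125, limma). mt-Tt, the threonine tRNA, rose by 1.00 and 1.1 on the log2 scale and mt-Tn, the asparagine tRNA, by 1.15 and 1.05. In all, the called tRNA genes had log2 fold changes of at least 0.72.

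The tRNA genes that border an rRNA gene included the smallest tRNA fold changes on ND. mt-Tf, mt-Tv and mt-Tl1 carry phenylalanine, valine and leucine and mark the ends of mt-Rnr1 and mt-Rnr2, and mt-Tf was chosen for its position after its values were seen. On ND their log2 fold changes were 0.81, 0.18 and 0.31 and none was called. On HSD the values were 1.20, 1.02 and 0.82, and mt-Tf was called (adjusted p = 0.0186, limma). mt-Tv was at 41.8, 37.9 and 89.8 CPM in ND, 39.9, 32.6 and 58.4 CPM in HSD, 51.3, 72.2 and 56.3 CPM in ND ICHD7, and 267, 50.9 and 47.0 CPM in HSD ICHD7. HSD ICHD7 replicate 1 stood far above all other libraries for this gene, and without it the log2 fold change on HSD was 0.21. mt-Tl1 was at 37.2, 29.5 and 29.2 CPM in ND and 37.6, 46.5 and 34.9 CPM in ND ICHD7. In HSD it was at 31.4, 18.9 and 38.2 CPM and in HSD ICHD7 at 42.8, 40.4 and 73.6 CPM, without overlap on that diet and with an adjusted p of 0.136 (limma).

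The 2 most abundant tRNA genes are light-strand genes at the 2 ends of mt-Co1. mt-Ty lies 1 base before mt-Co1 and mt-Ts1 overlaps its last 3 bases, both on the strand opposite to it, and whether reads were assigned by strand is not given in the sources used here. mt-Ty was at 214, 614 and 185 CPM in ND ICHD7 and 229, 240 and 653 CPM in HSD ICHD7, beside the values without ICH given above. Both groups held 1 library far above the rest, ND ICHD7 replicate 2 and HSD ICHD7 replicate 3. Its log2 fold change was 0.76 ± 0.37 on ND and 1.47 ± 0.41 on HSD, and neither was called (adjusted p = 0.213 and 0.0689, limma). mt-Ts1 was at 174, 135 and 127 CPM in ND and 223, 343 and 222 CPM in ND ICHD7, without overlap, and rose by 0.83 ± 0.18 on the log2 scale (adjusted p = 0.00743, limma). In HSD it was at 147, 130 and 180 CPM and in HSD ICHD7 at 275, 252 and 125 CPM. There the groups overlapped, because HSD ICHD7 replicate 3 held the lowest value of the 6.

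Levels rank by position along the cluster of light-strand tRNAs that ends at mt-Co1. In ND, mt-Ta was at 135 ± 32.6 CPM per kb (SD, n = 3), mt-Tn at 223 ± 54.5, mt-Tc, the cysteine tRNA, at 328 ± 45.2 and mt-Ty at 2576 ± 494. mt-Ta and mt-Tn differed by more than either SD, as did each further pair. mt-Tc, next to mt-Ty, was at 25.1, 20.1 and 19.9 CPM in ND and 38.7, 47.2 and 38.0 CPM in ND ICHD7, without overlap. It rose by 0.92 ± 0.12 on the log2 scale (adjusted p = 0.000375, limma). On HSD its value was 0.99 ± 0.26 (adjusted p = 0.0564, limma).

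**Figure D5:**
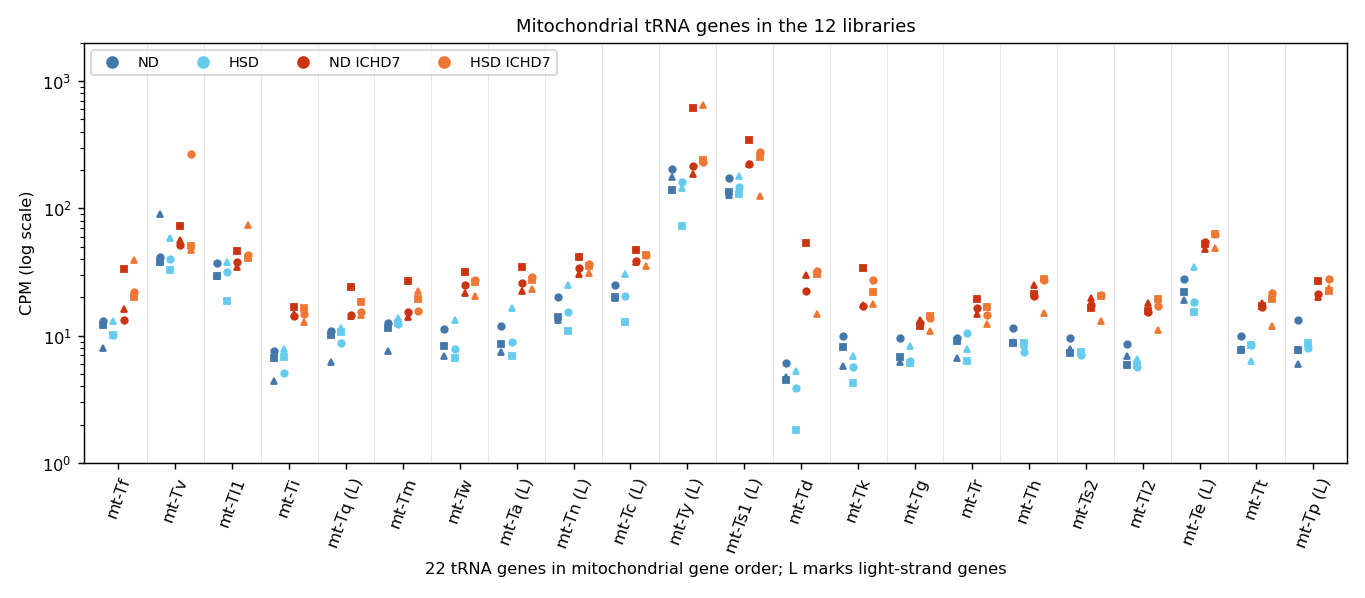
Level in CPM (y axis, log scale) of the 22 tRNA genes in mitochondrial gene order (x axis) in all 12 libraries, coloured by group, with replicates 1, 2 and 3 as circles, squares and triangles. Points after ICH lie above those without ICH for 18 of the 22 genes. Single libraries stand out for mt-Tv (267 CPM) and mt-Ty (614 and 653 CPM).

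HSD ICHD7 replicate 3, the most deeply sequenced library, differed from its group in a way that separated the classes. Of the 3 HSD ICHD7 libraries it was highest for both rRNAs and 11 of the 13 mRNAs, but lowest for 17 of the 22 tRNAs. It was highest for only 4 tRNAs, mt-Tf, mt-Tl1, mt-Tm and mt-Ty. In the ND ICHD7 group, replicate 2 was highest for 11 of 13 mRNAs and 16 of 22 tRNAs. On HSD the number of called members depended on single libraries. It was 2 without HSD ICHD7 replicate 1 (mt-Tk and mt-Tp), beside 56 of all 16703 genes tested. It was 3 without HSD ICHD7 replicate 2, beside 95 of 16863 genes. Without HSD replicate 1 it was 8, beside 425 of 17755 genes, and without HSD replicate 2 it was 9, beside 671 of 17968. Calls over all genes thus also fell in these fits, from 1189 of 18082. The median tRNA log2 fold change stayed between 1.1 and 1.31 when any 1 library was left out. On ND the number of called members ran from 15 to 18, with median tRNA log2 fold changes of 0.99 to 1.14. Without any 1 ND ICHD7 library it was 15, where 264 to 424 of all 17216 to 17329 genes tested were called. Without any 1 ND library it was 16 to 18, beside 2562 to 2995 of 19197 to 19271 genes.

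Fold changes of the mRNAs after ICH were smaller. On ND, 36 of all 37 members had higher means after ICH (50.8% of all genes) and 12 of these were mRNAs, of which the median log2 fold change was 0.22 and none was called. On HSD all 37 means were higher (49.3% of all genes), with a median of 0.54 for the mRNAs. mt-Nd6, a complex I subunit and the light-strand mRNA, was the only one called there. It was at 566, 451 and 406 CPM in ND and 614, 605 and 608 CPM in ND ICHD7, and at 424, 341 and 526 CPM in HSD and 639, 662 and 768 CPM in HSD ICHD7. Groups did not overlap on either diet. The log2 fold change was 0.70 ± 0.16 on HSD (adjusted p = 0.0353, limma) and 0.37 ± 0.12 on ND (adjusted p = 0.0685). The call on HSD was lost when any library but HSD replicate 3 was left out. The lowest values were those of mt-Nd4 on ND, −0.01, and of mt-Cytb on HSD, 0.07. By complex, median log2 fold changes on ND and HSD were 0.25 and 0.57 for the 7 complex I genes, 0.15 and 0.41 for the 3 complex IV genes, and 0.27 and 0.55 for the 2 complex V genes. Adding the reads of the nuclear copies to the mRNA sum left the stratified tRNA over mRNA difference at 0.70 (exact permutation p = 0.005, adjusted p = 0.12), in an alternative chosen after seeing the data.

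Nuclear genes that serve this genome were counted beside the 16.7% of all genes called on ND and the 6.58% called on HSD. Both shares were much lower in fits limited to genes that passed the study's CPM filter. There, 116 of 9696 genes were called on ND and 44 of 9729 on HSD, so few calls in a list need not set it apart. Of 39 genes for processing of mitochondrial RNA, 0 were called higher and 1 lower in ND ICHD7 against ND, and 0 in HSD ICHD7 against HSD. The one called was Grsf1, an RNA-binding protein of mitochondrial RNA granules, at 46.1 ± 0.561 CPM in ND and 38.3 ± 1.84 CPM in ND ICHD7 (SD, n = 3), which fell by 0.26 on the log2 scale (adjusted p = 0.0467, limma). Of 22 genes for aminoacyl-tRNA synthetases that act in mitochondria, 0 were called on ND and 1 on HSD. This was Aars2, which charges alanine tRNA, at 18.7 ± 0.614 CPM in HSD and 13.05 ± 0.813 CPM in HSD ICHD7, and it fell by 0.50 on the log2 scale (adjusted p = 0.0446, limma). The median log2 fold change of the synthetases was −0.13 on ND and −0.01 on HSD. Of 20 genes for transcription and upkeep of mitochondrial DNA, 13 translation factors and 12 regulators of biogenesis, none was called in either comparison, with medians between −0.10 and 0.03.

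Against the same shares of all genes, 16.7% on ND and 6.58% on HSD, the remaining lists gave these counts. Both shares were much lower with the study's CPM filter, as given above. Of 80 genes whose symbols mark mitochondrial ribosomal proteins, 1 was called higher and 1 lower on ND, and 1 higher on HSD. Mrpl38, a protein of the large subunit, fell by 0.39 on the log2 scale on ND (adjusted p = 0.0301, limma), and the member called higher on both diets was the pseudogene Mrpl48-ps, with group means of 0.375 to 1.46 CPM. None of 83 nuclear genes for subunits of oxidative phosphorylation was called in either comparison. Of 14 genes of mitochondrial stress and mitophagy, 1 was called higher and 1 lower on ND. The one called lower was Hspd1, the mitochondrial chaperonin HSP60, at 181 ± 6.35 CPM in ND and 125 ± 13.4 CPM in ND ICHD7. It fell by 0.53 on the log2 scale (adjusted p = 0.00175, limma). None of the 14 was called on HSD.

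Between diets after ICH, 45.8% of all genes had a higher mean in HSD ICHD7, and the median log2 fold change over all genes was −0.03. Over the 9664 genes that passed the study's CPM filter the median was 0.08, so better expressed genes leaned toward HSD ICHD7 in general. Of 83 nuclear oxidative phosphorylation genes tested, 78 had a higher mean in HSD ICHD7 than in ND ICHD7, with a median log2 fold change of 0.21, and of 80 mitochondrial ribosomal protein genes 74 did, with a median of 0.23. limma called 0 genes of any list there. At an unadjusted p under 0.05, 11 of the first list and 10 of the second were higher, as were 5.42% of all genes. Without ICH the medians were 0.07 and 0.11, beside 0.02 over all genes, and 5 and 6 genes were higher at that level, as were 3.65% of all genes. Among the RNA processing and synthetase genes with the smallest p between HSD and ND were Aars2, with a log2 fold change of 0.48 (adjusted p = 0.268, limma), and Trmt61b, a methyltransferase of mitochondrial tRNA, with 0.45 (adjusted p = 0.626).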

How the data were processed

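RNA-seq of sorted HSPCs was available for 12 libraries in 4 groups of 3. The deposited values are CPM that the authors made from reads aligned to mm10 and assigned to genes with featureCounts, scaled by TMM in edgeR 3.24.3. The handling of strand and of reads with more than 1 match is not given in the sources used here. All values were whole reads within a tolerance of 0.01 of a read. Shares are percents of reads in the 20792 listed genes.

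Groups were compared with limma 3.58.1 (R 4.3.3, trend) on log2(CPM + 0.5) for genes that reached 10 reads in 3 or more libraries, with Benjamini-Hochberg adjustment over all genes tested. p-values measure no spread other than that between libraries, and limma moderates it by a variance trend over all genes tested. Class shares and ratios were compared by exact permutation over all relabellings, with p-values adjusted in scipy 1.17.1. The fits were checked on simulated data. Alternatives used other pseudocounts, filters, scalings, edgeR 4.0.16, DESeq2 1.42.0, a replicate block and libraries left out. Nuclear copies were found with blastn 2.17.0 against GENCODE M21 transcripts.

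Named were all rRNA and mRNA genes, the 6 tRNA genes with the highest mean CPM, the 8 other called genes with the smallest adjusted p, and of each nuclear list up to 4 genes by p. Members and lists were chosen with earlier results of these data known. One gene of the nuclear lists is not reported here.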

Additional observations from a re-analysis of the deposited data

How the results depend on the processing

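The direction of several diet differences depended on single libraries. Without HSD replicate 2 and ND replicate 1, HSD minus ND was 0.534 percentage points for rRNAs and 0.201 for mRNAs. It was 0.00545 for tRNAs and 0.741 for all 37 genes. In that setting 1 member was called, beside 91 of all 16318 genes tested. The tRNA share over both ICH states then differed by 0.00417 points. With single libraries left out, HSD minus ND ran from −0.938 to 0.369 points for rRNAs, −0.143 to 0.134 for mRNAs, −0.0129 to 0.00178 for tRNAs and −1.09 to 0.504 for all. Over both ICH states the diet difference ran from −0.105 to 0.549 points for rRNAs, −0.00856 to 0.0113 for tRNAs and −0.0905 to 0.709 for all. After ICH, HSD minus ND ran from −0.0112 to 0.0286 points for the tRNA share and, on the log2 scale, from −0.165 to 0.0394 for tRNA over mRNA, −0.116 to 0.0392 for rRNA over mRNA and −0.198 to 0.0600 for mt-Nd6 over heavy-strand mRNA. ICH over both diets ran from 0.922 to 1.58 points for rRNAs, 0.0551 to 0.0750 for tRNAs and 1.30 to 2.10 for all, each passing the test without HSD replicate 3. mt-Rnr2 over mt-Rnr1 after ICH ran from −0.00695 to 0.106 on ND and −0.0187 to 0.0732 on HSD. Members called on HSD ran from 2 to 16, while calls over all genes in these fits ran from 56 to 671. For single genes, mt-Tv on ND ran from −0.0475 to 0.569 and mt-Cytb in HSD vs ND from −0.0759 to 0.452. The causes were not tested.

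By setting, the stated CPM filter left 4 members called on HSD, beside 44 of all 9729 genes tested. These were mt-Td, mt-Tk, mt-Tp and mt-Ts2, with HSD means of 3.67 to 8.49 CPM, so they passed it only through HSD ICHD7. Summed deposited CPM turned the tRNA diet difference over both ICH states to 2.12 CPM. Adding nuclear copies turned rRNA over mRNA between diets after ICH to 0.00793. edgeR's quasi-likelihood test on recovered reads called 3094 genes and 18 members on ND and 1064 genes and 16 members on HSD. DESeq2 called 2893 genes and 21 members on ND and 1432 genes and 21 members on HSD. Same-numbered libraries did not deviate together (correlations −0.191 to 0.0794). With a replicate block, 3304 genes and 19 members were called on ND and 1081 genes and 17 members on HSD. Between diets it gave 0 called members, beside 16 genes without ICH and 0 after ICH.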
